A study of Canis lupus familiaris with 6 samples.

Results

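The red cell membrane skeleton genes described here were the 9 rows of the deposited table that carry the symbols ANK1, SPTB, EPB41, EPB42, SLC4A1, RHAG, TMCC2, DMTN and ADD2, out of 31512 genes in all. The rule that picks them uses their symbols and none of their values, although the list was drawn up with earlier results of these data known. Whole blood was taken on day 30 from 3 Beagle dogs of the control group and 3 of the CPP-Se group, all 1.5 years old, and 1 library was sequenced per dog. Every dog ate the same maintenance food. The control dogs were also given a 30 g snack without supplement, whereas the CPP-Se dogs were given a 30 g snack holding 0.03% casein phosphopeptide-selenium chelate (CPP-Se), in which selenium is bound to peptides from milk casein. The comparison asks whether the RNA levels of these genes in blood differed after the supplement.

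The red cell keeps its shape with a protein mesh under its membrane. Spectrin forms the strands of the mesh, short actin filaments form its knots, and ankyrin and protein 4.1 tie it to proteins that cross the membrane, above all the anion exchanger band 3. Inherited defects of ankyrin, spectrin, band 3 or protein 4.2 cause spherocytosis or elliptocytosis, in which red cells lose their disc shape. Mature red cells have no nucleus, so the red cell RNA of blood comes mostly from reticulocytes, the youngest red cells, which still carry messages made in the bone marrow. In whole blood, fewer cells of a type and less RNA per cell cannot be told apart.

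Values are FPKM, the fragments on a gene divided by gene length and library size, as the authors deposited them. The reads on genes numbered 6598173 to 8067034 per dog. The labelled tissue fitted its markers: the 8 hemoglobin genes took up 36.6% of reads on genes in CPP-Se replicate 2 and 48.7% to 55.9% in the other 5 dogs, and the lists of platelet, neutrophil, monocyte, T cell, B cell and cytotoxic cell markers all held genes with at least 1 FPKM. CPP-Se replicate 2 stood apart, since its FPKM imply a library 1.65 times its reads on genes, against 0.882 to 1.05 times in the others. The hemoglobin share was 50.3% ± 2.40 (SD, n = 3) in control dogs and 49.1% ± 10.8 (SD, n = 3) in CPP-Se dogs, a difference of -1.26 percentage points (exact permutation test, two-sided, p = 1, where the smallest possible p is 0.1). Without CPP-Se replicate 2 this difference was 4.997 percentage points, and without control replicate 2 it was 0.119.

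None of the 9 genes passed the test between the groups, although the 3 CPP-Se dogs lay above all 3 control dogs for TMCC2, RHAG and ANK1. All 9 genes passed the filter of a mean of at least 1 FPKM, as did 9847 genes in all. A gene was called at an adjusted p below 0.05 together with a 1.5-fold difference or more, which 0 of the 9 reached (limma on log2(FPKM + 1), Benjamini-Hochberg over the 9847 genes, lowest adjusted p of the 9 = 0.138), beside 3 of all genes tested (0.0305%), 0 of them with higher values under CPP-Se (0.0%) and 3 with lower. Before adjustment, p was below 0.05 for 4 of the 9 genes, SLC4A1, RHAG, ANK1 and TMCC2, all with higher values in the CPP-Se group, whereas 16.0% of all genes tested had such a p, 6.87% with higher and 9.1% with lower values. The groups did not overlap in 3 of the 9 genes, all higher in CPP-Se dogs, where 10.4% of all genes tested did so in this direction, 12.6% in the other and 23.0% in either. Without control replicate 2 there were 5 such genes, with EPB41 and SLC4A1 added, beside 33.3% of all genes tested in either direction. The log2 fold change, given throughout as CPP-Se minus control on the log2(FPKM + 1) scale, was above 0 in 7 of the 9 genes and in 49.6% of all genes tested. Its median was 0.51 over the 9 genes and -0.0043 over all genes tested.

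**Figure D1:**
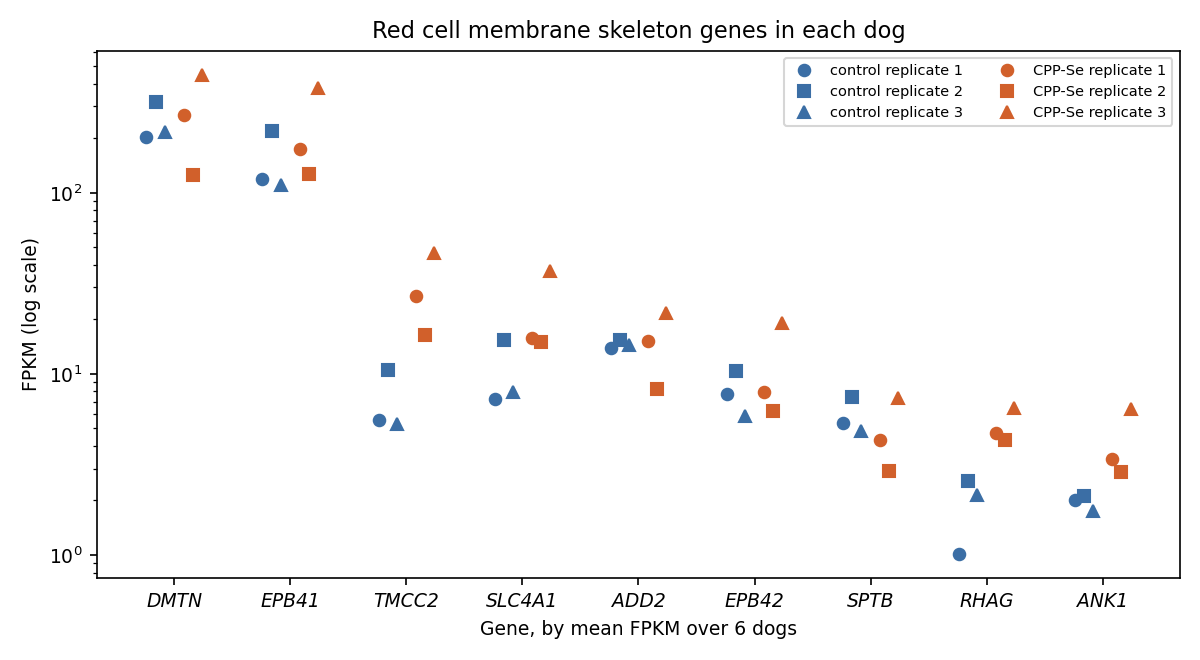
FPKM (log scale) of the 9 red cell membrane skeleton genes in each of the 6 dogs, with genes ordered by their mean over the dogs, control dogs in blue, CPP-Se dogs in orange and a marker shape for each replicate number. CPP-Se replicate 3, the orange triangle, is the highest point for every gene but SPTB, and the colours separate for TMCC2, RHAG and ANK1.

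By mean FPKM over the 6 dogs, which is a level per length and so comparable between genes, the order was DMTN at 262.9, EPB41 at 188.0, TMCC2 at 18.6, SLC4A1 at 16.4, ADD2 at 14.8, EPB42 at 9.57, SPTB at 5.37, RHAG at 3.53 and ANK1 at 3.09. The genes for the actin bundler and the spectrin-actin linker were thus far more abundant than those for spectrin and ankyrin, the large proteins of the mesh. EPB41 and TMCC2 were the only neighbours in this order whose ranges over dogs did not overlap, as the lowest EPB41 level was 109.8 and the highest TMCC2 level 46.6. ADD2 was above EPB42, and EPB42 above SPTB, in 6 of 6 dogs, yet their ranges over dogs overlapped. TMCC2 was above SLC4A1 in 3 of 6 dogs, SLC4A1 above ADD2 in 4, SPTB above RHAG in 4, RHAG above ANK1 in 5 and DMTN above EPB41 in 5. The order within these last pairs was thus not the same in every dog. The order pools both groups and is not the same in each: TMCC2, with a mean of 7.12 FPKM in control dogs, stood there below ADD2 (14.5), SLC4A1 (10.2) and EPB42 (8.01). RHAG and ANK1 also changed places in control dogs (1.91 against 1.95 FPKM), as did SPTB and RHAG in CPP-Se dogs (4.85 against 5.16 FPKM). Among the genes tested, DMTN lay at percentile 98.1 of mean FPKM, EPB41 at 97.5 and ANK1 at 34.3.

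Band 3, protein 4.2, ankyrin and the Rh-associated glycoprotein make up the anchor that joins spectrin to the membrane. SLC4A1 encodes band 3, which exchanges chloride for bicarbonate and is the main foothold of ankyrin (ENSCAFG00000014228, chromosome 9, 19146480 to 19157915, forward strand of the Ensembl release 100 dog genome). Its levels were 7.26, 15.5 and 7.98 FPKM in control replicates 1, 2 and 3 and 15.7, 15.0 and 37.2 FPKM in CPP-Se replicates 1, 2 and 3. Control replicate 2 lay just above CPP-Se replicate 2, so the groups overlapped by that 1 dog. The means were 10.2 ± 4.55 and 22.7 ± 12.6 FPKM (SD, n = 3 each), with a log2 fold change of 1.02 (SE 0.40, 95% interval 0.0945 to 1.95, adjusted p = 0.276 from limma), which was 0.62 without CPP-Se replicate 3.

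RHAG encodes the Rh-associated glycoprotein, a membrane channel for ammonia that carries the Rh complex to the red cell surface (ENSCAFG00000002141, chromosome 12, 17433670 to 17454311, reverse strand). The control dogs had 1.01, 2.56 and 2.15 FPKM and the CPP-Se dogs 4.71, 4.30 and 6.46 FPKM. Every CPP-Se dog lay above every control dog, and RHAG was the only one of the 9 genes with a smaller relative spread in the CPP-Se group. The means were 1.91 ± 0.7999 and 5.16 ± 1.15 FPKM (SD, n = 3 each), with a log2 fold change of 1.11 (SE 0.27, 95% interval 0.48 to 1.73, adjusted p = 0.161 from limma). RHAG also had the fewest reads, with 14, 33 and 35 in control dogs and 61, 116 and 80 in CPP-Se dogs. The exact Poisson 95% interval of the 14 reads was 7.65 to 23.5 and that of the 61 reads was 46.7 to 78.4, intervals that cover counting error only, as reads of PCR libraries are not independent molecules.

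ANK1 encodes ankyrin, the adaptor between spectrin and band 3 (ENSCAFG00000005691, chromosome 16, 23766193 to 23964226, forward strand). Its levels were 2.00, 2.12 and 1.74 FPKM in control dogs and 3.39, 2.86 and 6.43 FPKM in CPP-Se dogs. The control dogs lay close together, below all CPP-Se dogs, and CPP-Se replicate 3 stood well above the rest. The log2 fold change was 0.77 (SE 0.27, 95% interval 0.13 to 1.40, adjusted p = 0.253 from limma), from means of 1.95 ± 0.195 and 4.23 ± 1.93 FPKM (SD, n = 3 each), and it was 0.48 without CPP-Se replicate 3. ANK1 overlaps GPAT4, a glycerolipid synthesis gene on the opposite strand, over 52255 bases. The use of strand in counting is not given in the sources used here, so reads in the overlap cannot be assigned with certainty, and GPAT4 itself was at 6.57, 7.58 and 10.04 FPKM in control dogs and 6.85, 8.91 and 6.65 FPKM in CPP-Se dogs (log2 fold change -0.090). The span of ANK1 also holds the microRNA gene cfa-mir-486, which had 0 reads in every dog of these mRNA libraries, below a floor of 3 reads.

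EPB42 encodes protein 4.2, an inactive relative of the transglutaminases that steadies the bond of band 3 with ankyrin (ENSCAFG00000011974, chromosome 30, 10065469 to 10084976, reverse strand). Control levels of 7.72, 10.4 and 5.89 FPKM stood beside CPP-Se levels of 7.95, 6.23 and 19.2 FPKM. The groups overlapped, and only CPP-Se replicate 3 lay above all control dogs. The log2 fold change was 0.31 (SE 0.39, 95% interval -0.60 to 1.21, adjusted p = 0.741 from limma), and without CPP-Se replicate 3 it was -0.13. The whole 19508 bases of EPB42 lie inside CCNDBP1 on the opposite strand, a gene at 15.1, 30.0 and 14.6 FPKM in control dogs and 23.5, 16.9 and 38.5 FPKM in CPP-Se dogs. Whether exons of the pair overlap was not examined, so the assignment of reads to EPB42 is uncertain without strand.

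For SPTB, EPB41, DMTN and ADD2, the members that build the spectrin strands or bind their actin knots, the groups overlapped. SPTB encodes beta spectrin, 1 of the 2 chains of the red cell spectrin strand (ENSCAFG00000016120, chromosome 8, 39158795 to 39221193, reverse strand). Its levels were 5.34, 7.48 and 4.85 FPKM in control dogs and 4.30, 2.93 and 7.34 FPKM in CPP-Se dogs, so the groups overlapped. The log2 fold change was -0.29 (SE 0.30, 95% interval -0.98 to 0.41, adjusted p = 0.683 from limma), the lowest of the 9 genes. It stayed below 0 in all 22 alternative settings, at values between -0.58 (without CPP-Se replicate 3) and -0.033 (without CPP-Se replicate 2).

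EPB41 encodes protein 4.1, which strengthens the grip of spectrin on actin and links it to glycophorin C (ENSCAFG00000011677, chromosome 2, 71474954 to 71584266, reverse strand). The control dogs had 119.8, 220.3 and 109.8 FPKM and the CPP-Se dogs 174.8, 126.4 and 377.0 FPKM. Control replicate 2 lay above a pair of CPP-Se dogs. The log2 fold change was 0.51 (SE 0.44, 95% interval -0.51 to 1.52, adjusted p = 0.615 from limma) and was 0.060 without CPP-Se replicate 3.

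DMTN encodes dematin, which bundles actin filaments (ENSCAFG00000009736, chromosome 25, 35165876 to 35176754, reverse strand), and it was the most abundant of the 9 genes. Its levels were 202, 317 and 217 FPKM in control dogs and 268, 125 and 449 FPKM in CPP-Se dogs. The CPP-Se group held both the highest and the lowest dog, and the log2 fold change was 0.035 (SE 0.45, 95% interval -1.003 to 1.07, adjusted p = 0.975 from limma). This interval is wide enough to hold a doubling as well as a loss of the same size, so the data do not show equal levels. Without CPP-Se replicate 3 the log2 fold change was -0.40, and without CPP-Se replicate 2 it was 0.52.

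ADD2 encodes beta adducin, which caps actin filaments and recruits spectrin to them (ENSCAFG00000003407, chromosome 10, 69057267 to 69098521, reverse strand). Control levels were 13.9, 15.4 and 14.4 FPKM, the tightest group of any of the 9 genes, with a coefficient of variation of 5.0%. The CPP-Se dogs spread to both sides of it, at 15.3, 8.28 and 21.7 FPKM, with a coefficient of variation of 44.4%. The 8.28 FPKM are of CPP-Se replicate 2, whose FPKM imply a library 1.65 times its reads on genes. The part of this scale in the spread was not tested. The log2 fold change was -0.045 (SE 0.31, 95% interval -0.77 to 0.68, adjusted p = 0.960 from limma), and it was above 0 when the libraries were scaled to a common sum of FPKM (0.095) or of hemoglobin FPKM (0.15), and without CPP-Se replicate 2 (0.30).

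TMCC2 encodes a membrane protein with coiled coils that resides in the endoplasmic reticulum and is not a component of the skeleton as usually described (ENSCAFG00000010030, chromosome 38, 1734051 to 1773817, forward strand). It had the largest difference of the 9 genes, with 5.54, 10.5 and 5.31 FPKM in control dogs and 26.9, 16.5 and 46.6 FPKM in CPP-Se dogs. The lowest CPP-Se dog lay above the highest control dog by more than the whole control range. The means were 7.12 ± 2.94 and 30.0 ± 15.3 FPKM (SD, n = 3 each), a ratio of 4.21, and the log2 fold change was 1.87 (SE 0.39, 95% interval 0.96 to 2.78). This missed the threshold after adjustment (adjusted p = 0.138, limma). With each dog left out in turn it lay between 1.502 and 2.22. When each library was scaled to the same summed FPKM, TMCC2 passed (log2 fold change 2.01, adjusted p = 0.0330, limma), as did 0.122% of all genes tested, 0.0812% with higher values in the CPP-Se group.

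**Figure D2:**
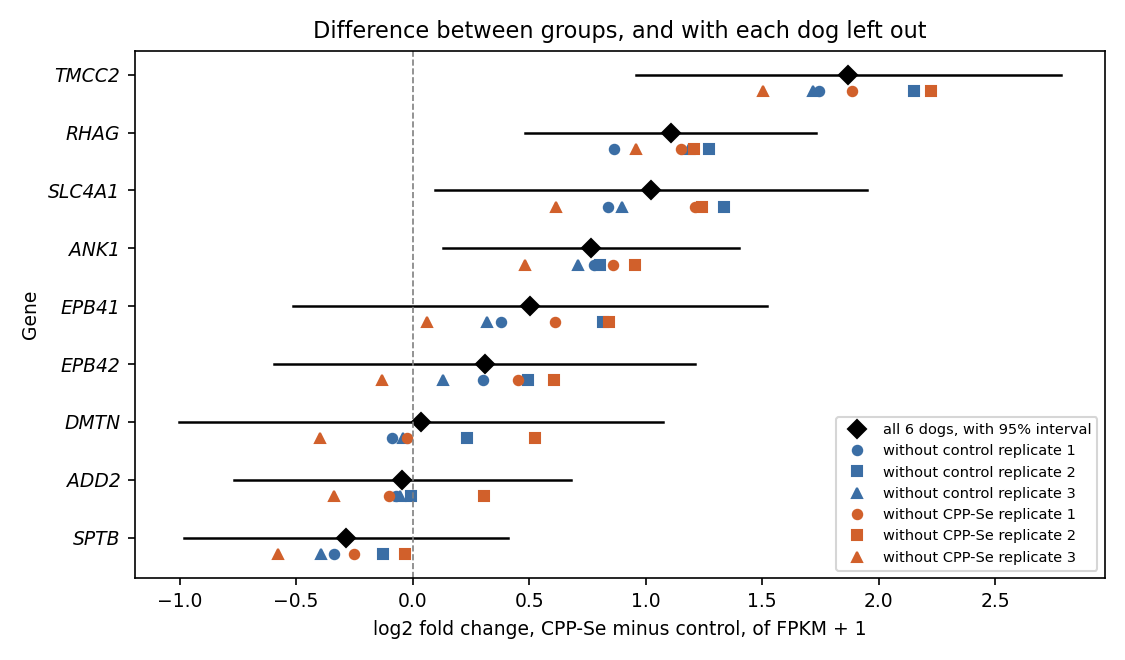
Log2 fold change of FPKM + 1, CPP-Se minus control, for each of the 9 genes over all 6 dogs (black diamonds, bars for the 95% interval of the limma fit) and with each dog left out in turn (coloured points named by the dog left out). TMCC2, RHAG, SLC4A1 and ANK1 stay above 0 whichever dog is left out, SPTB stays below 0, and EPB42, DMTN and ADD2 take both signs.

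A count model gave more calls. Since FPKM times gene length came out as whole multiples of a single step per library, reads per gene could be recovered, and the 9 genes had 14 to 9812 reads per dog. In a negative binomial model of these reads 3 of the 9 genes passed, namely TMCC2 (adjusted p = 0.000383), RHAG (adjusted p = 0.0119) and ANK1 (adjusted p = 0.0465), all higher in the CPP-Se group. SLC4A1 did not (adjusted p = 0.117). The same model called 4.96% of all genes tested, 1.86% as higher in the CPP-Se group. It draws the spread of each gene toward a trend over genes and takes p from a normal distribution (Wald test). The calls of the 3 genes thus depended on the model.

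On the deposited FPKM scale the dogs differed among themselves in a like way for all 9 genes, though such ranks change with the scaling of libraries. Control replicate 2 was the highest control dog for 9 of 9 genes and CPP-Se replicate 3 the highest CPP-Se dog for 9 of 9, a combination found in 13.1% of all genes tested. CPP-Se replicate 3 was the highest of all 6 dogs for 8 of 9 genes (19.4% of all genes tested), the exception being SPTB, with control replicate 2 on top. CPP-Se replicate 2 was the lowest of all 6 dogs for SPTB, DMTN and ADD2, 3 of 9 genes (15.6% of all genes tested). The summed level of the 9 genes, mostly DMTN and EPB41, was 365, 601 and 369 FPKM in control dogs and 521, 307 and 970.5 FPKM in CPP-Se dogs, so that the sums of the groups overlapped. As a share of the reads on genes, the 9 genes took 0.132%, 0.197% and 0.133% in control dogs and 0.169%, 0.180% and 0.2995% in CPP-Se dogs. CPP-Se replicate 2, lowest by summed FPKM, was above control replicates 1 and 3 and CPP-Se replicate 1 by this share, and the groups overlapped on both scales. The coefficient of variation was larger in the CPP-Se group for 8 of 9 genes, beside 61.3% of all genes tested. Between the highest and the lowest dog the levels differed by 2.56-fold (SPTB) to 8.77-fold (TMCC2).

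Setting each gene against the hemoglobin RNA of the same dog compares it with the most abundant red cell message rather than with the whole library. On this scale, FPKM per 100000 FPKM of hemoglobin, the groups did not overlap for 4 of 9 genes, all higher in CPP-Se dogs, where 7.70% of all genes tested did not overlap in either direction. TMCC2 was at 3.42, 5.34 and 3.30 in control dogs and 13.6, 21.6 and 21.5 in CPP-Se dogs. SLC4A1, whose groups overlapped by a single dog on the FPKM scale, was at 4.48, 7.85 and 4.95 against 7.95, 19.7 and 17.2, with a narrow gap. RHAG was at 0.626, 1.298 and 1.34 against 2.38, 5.63 and 2.98. ANK1 was at 1.24, 1.08 and 1.08 against 1.71, 3.74 and 2.97. CPP-Se replicate 2, low on the FPKM scale, was the highest dog for all 4 genes here, and it was also the dog with the lowest summed hemoglobin (76430 FPKM against 161071 to 216525 FPKM in the others). The part of that low hemoglobin level in these values was not tested. EPB41, EPB42, SPTB, DMTN and ADD2 overlapped on this scale as well, for example DMTN at 125, 161 and 135 against 135, 163 and 207.

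**Figure D3:**
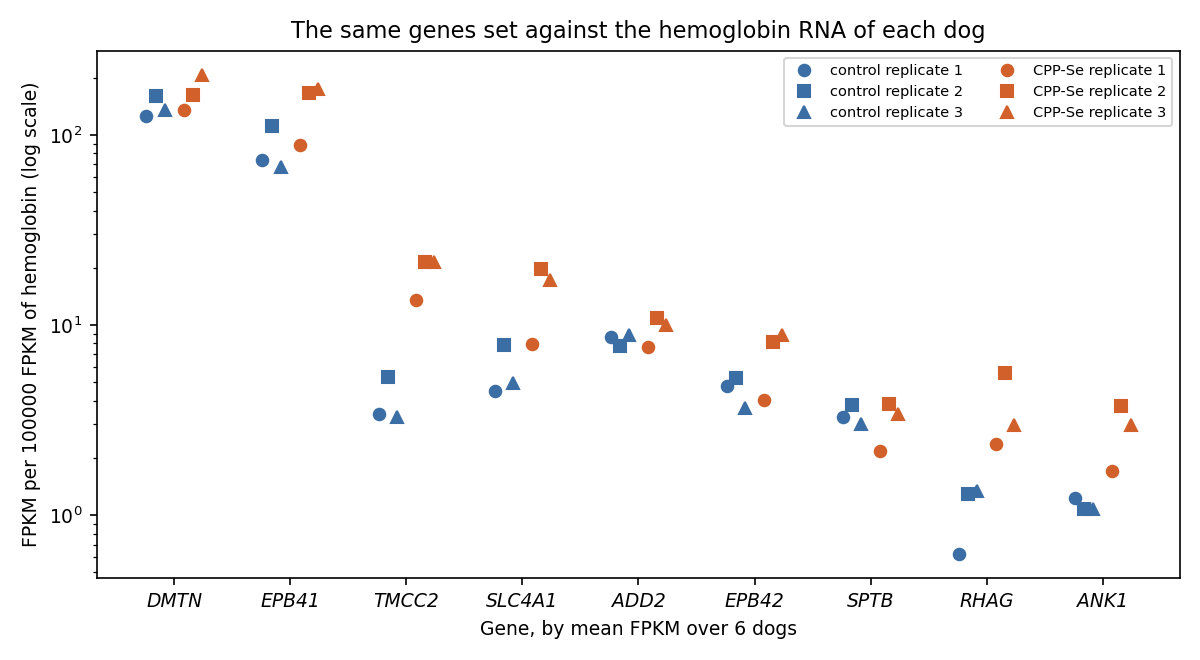
FPKM of the 9 genes per 100000 FPKM of hemoglobin in the same dog (log scale), with the genes, colours and marker shapes as in the plot of FPKM by dog. The colours separate for TMCC2, SLC4A1, RHAG and ANK1 and overlap for the other genes, and the orange square, CPP-Se replicate 2, is no longer the lowest of the CPP-Se dogs for any gene.

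Ratios between the 9 genes within a library do not depend on how libraries were scaled. They were computed after the levels had been seen, for all 36 pairs, which share genes, so they are given as a description. In 22 of the 36 pairs (61.1%) the ratios of the control dogs and of the CPP-Se dogs did not overlap, beside 20.9% of all pairs of genes tested that were above 0 in every dog. With a pseudocount of 1 this was so for 21 of the 36 pairs, beside 21.4%. For a single pair an exact permutation test of 3 dogs against 3 cannot go below p = 0.1, and over the 36 pairs the lowest Benjamini-Hochberg value was 0.164.

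The balance between ankyrin and spectrin differed by dog group in this way. The ratio of ANK1 to SPTB was 0.375, 0.284 and 0.358 in control dogs and 0.790, 0.978 and 0.877 in CPP-Se dogs, so that ankyrin RNA stood at roughly the level of spectrin RNA only in the latter. SPTB over SLC4A1 was 0.736, 0.483 and 0.608 in control dogs and 0.273, 0.195 and 0.197 in CPP-Se dogs. SLC4A1 over ADD2 was 0.521, 1.01 and 0.556 against 1.03, 1.82 and 1.72, a narrow separation. TMCC2 was apart from 7 of the other 8 genes, the exception being RHAG. EPB41 over TMCC2 was 21.6, 21.0 and 20.7 in control dogs and 6.49, 7.67 and 8.10 in CPP-Se dogs, although the levels of EPB41 itself ranged widely. The ratios of other pairs overlapped: DMTN over ADD2 was 14.5, 20.7 and 15.1 against 17.5, 15.1 and 20.7, EPB41 over EPB42 was 15.5, 21.1 and 18.6 against 22.0, 20.3 and 19.6, and ANK1 over SLC4A1 was 0.276, 0.137 and 0.218 against 0.216, 0.1902 and 0.173. EPB42 over SLC4A1, in contrast, was 1.06, 0.674 and 0.738 in control dogs and 0.505, 0.414 and 0.516 in CPP-Se dogs, with the uncertainty of EPB42 noted above.

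**Figure D4:**
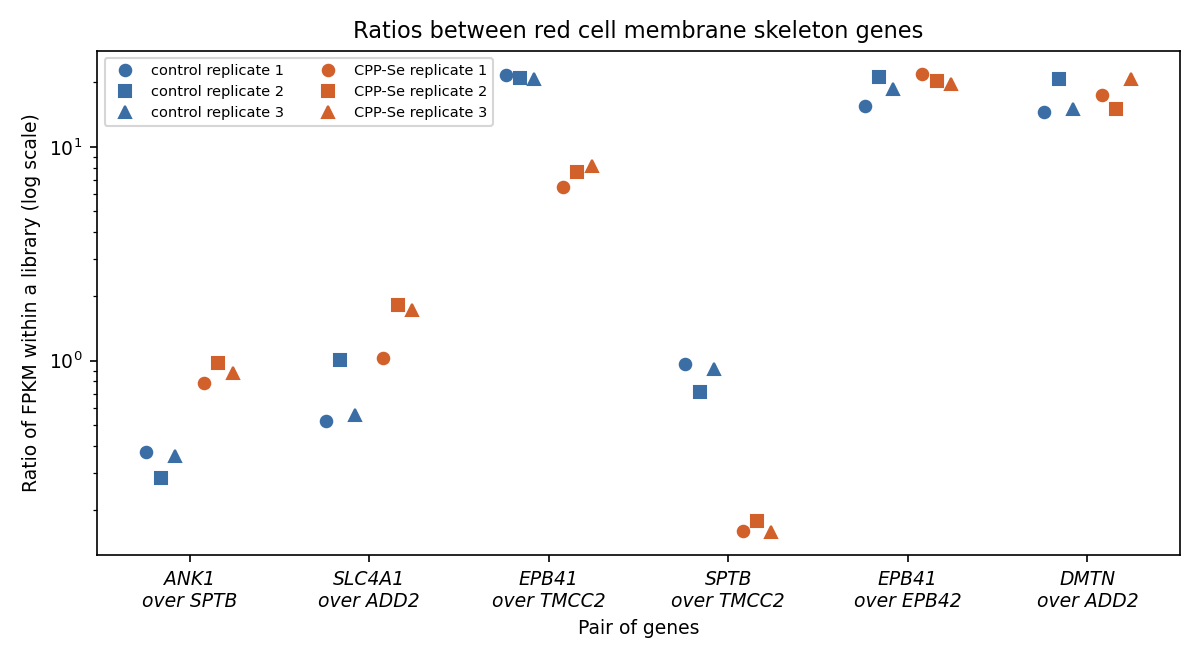
Ratio of the FPKM of a pair of genes within each library (log scale) for 6 of the 36 pairs, control dogs in blue and CPP-Se dogs in orange. ANK1 over SPTB and SLC4A1 over ADD2 are higher and EPB41 over TMCC2 and SPTB over TMCC2 lower in all CPP-Se dogs, whereas EPB41 over EPB42 and DMTN over ADD2 overlap.

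Likeness of pattern was measured as the root mean square difference of log2(FPKM + 1), centred on each gene's mean over the 6 dogs, so that 0 would be the same pattern. Among the 9 genes, EPB41 and EPB42 were closest (0.177), followed by SPTB and ADD2 (0.208), and SPTB and TMCC2 were farthest apart (1.09). CCNDBP1, whose span holds the uncertain EPB42, was closer to EPB41 (0.155) than EPB42 was. For the 3 genes with the largest fold changes the most similar of 8130 named genes were no other members of the 9. They were PCTP (0.235), TBXA2R (0.266) and CDPF1 (0.359) for TMCC2, PRXL2B (0.095), PTPA (0.096) and PTCD3 (0.129) for RHAG, and CLIC2 (0.109), DLA-79 (0.219) and CTSW (0.255) for SLC4A1. PCTP, which encodes a carrier of phosphatidylcholine, was at 34.9, 60.4 and 46.2 FPKM in control dogs and 152, 94.5 and 202 FPKM in CPP-Se dogs, and TBXA2R, the thromboxane receptor, at 15.0, 23.4 and 11.9 against 63.4, 36.9 and 64.9 FPKM. The nearest of the 9 genes was SLC4A1 for both TMCC2 (0.464) and RHAG (0.338).

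Among the other genes of the red cell membrane, those without overlap were mostly lower in CPP-Se dogs. Of 45 listed, 40 were in the table and 35 were tested, and 0 of the 35 were called. The groups did not overlap for 1 gene higher in CPP-Se dogs (ABCB6, a porphyrin transporter) and for 9 lower (ACTB, FLOT1, SEMA7A, MPP1, LYN, GYPC, CD47, CD59 and ATP2B1), several of which leukocytes also express, beside 10.4% and 12.6% of all genes tested in these directions. The median log2 fold change of the 35 was -0.12, and p before adjustment was below 0.05 for 0 genes with higher and 8 with lower values, beside 6.87% and 9.1% of all genes tested. GYPC, glycophorin C, the membrane partner of protein 4.1, was at 48.1, 47.7 and 41.5 FPKM in control dogs and 29.2, 24.1 and 35.4 FPKM in CPP-Se dogs (log2 fold change -0.63, adjusted p = 0.209, limma). MPP1, the scaffold that binds protein 4.1 and glycophorin C, was at 59.1, 60.0 and 64.4 against 37.3, 41.8 and 34.0 FPKM (log2 fold change -0.69, adjusted p = 0.168, limma). For protein 4.1 and its partners, then, EPB41 levels overlapped between the groups while GYPC and MPP1 lay lower in every CPP-Se dog.

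TMOD1, which caps the other end of the actin filaments, was at 8.98, 9.34 and 7.83 FPKM in control dogs against 6.03, 6.30 and 17.97 FPKM in CPP-Se dogs. Its groups overlapped, and its highest value was in CPP-Se replicate 3. XK, a membrane protein bound to the Kell antigen, was at 12.8, 16.9 and 10.9 against 7.84, 4.16 and 11.0 FPKM (log2 fold change -0.81, adjusted p = 0.283, limma). The Kell gene KEL (log2 fold change -0.39), the water channel AQP1 (-0.51), the integral protein STOM (-0.050) and the stretch channel PIEZO1 (0.37) also overlapped.

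Few of the broadly expressed relatives of the 9 genes reached a mean of 1 FPKM. Of 32 listed, 32 were in the table and 11 were tested, with 0 called and a median log2 fold change of -0.018. Of the 11 tested, those without overlap were the non-erythroid spectrins SPTAN1 and SPTBN1, both higher in CPP-Se dogs. Of all genes tested, 10.4% were higher and 12.6% lower in this way. SPTAN1 was at 31.1, 31.3 and 32.2 FPKM in control dogs and 38.3, 43.8 and 38.7 FPKM in CPP-Se dogs (log2 fold change 0.34, adjusted p = 0.361, limma), and SPTBN1 at 17.6, 16.8 and 17.8 against 18.1, 21.3 and 20.0 FPKM. TGM2, a tissue transglutaminase and relative of EPB42, had the largest difference of the list, at 16.5, 27.1 and 22.7 FPKM in control dogs against 60.7, 24.4 and 68.9 FPKM in CPP-Se dogs (log2 fold change 1.08, adjusted p = 0.260, limma), and its groups overlapped by CPP-Se replicate 2. The broadly expressed adducins ADD1 (log2 fold change -0.12) and ADD3 (-0.018) and the anion exchanger SLC4A2 (0.38) overlapped, as did SLC4A7 (0.23), EPB41L2 (-0.14), EPB41L3 (-0.42) and TMCC1 (-0.24), while ANK2, ANK3 and TMCC3 fell short of 1 FPKM. SPTBN1 was thus more abundant than SPTB in every dog, in a tissue where both red and white cells contribute RNA.

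In the other red cell lists the groups overlapped for nearly every gene, while 23.0% of all genes tested did not overlap in either direction. The groups overlapped for all 11 heme synthesis genes (median log2 fold change 0.21, range -0.56 to 0.64) and all 6 hemoglobin genes tested (median -0.18). Of 18 erythroid regulators and reticulocyte genes tested, BCL2L1, a survival gene of maturing red cells, was higher in every CPP-Se dog (log2 fold change 0.92, adjusted p = 0.176, limma), LMO2 was lower in every one (-1.14, adjusted p = 0.138, limma), and the median was -0.054. The order of dogs seen in the 9 genes, with control replicate 2 and CPP-Se replicate 3 each highest of its group, was found in 6 of 11 heme synthesis genes, 8 of 18 erythroid genes, 10 of 35 other red cell membrane genes, 5 of 12 T cell markers, 2 of 6 hemoglobin genes, 2 of 10 platelet genes, 1 of 7 neutrophil, 1 of 8 B cell, 1 of 7 cytotoxic cell and 0 of 9 monocyte markers and 1 of 11 relatives, beside 13.1% of all genes tested. CPP-Se replicate 2 was the lowest of all dogs for 6 of 6 hemoglobin and 10 of 10 platelet genes, beside 15.6% of all genes tested.

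White cell markers were read in the same way, and 0 genes of their lists were called. Of 9 monocyte markers tested, 7 were lower in every CPP-Se dog (median log2 fold change -0.82), and their summed level was 1002, 945 and 857 FPKM in control dogs and 464.5, 479 and 412 FPKM in CPP-Se dogs. Of 12 T cell markers 6 were higher and 1 lower without overlap (median 0.74), as were 3 of 8 B cell (median 0.57) and 3 of 7 cytotoxic cell markers (median 0.80) in the higher direction, while 3 of 7 neutrophil markers were lower (median -0.80). Of all genes tested, 10.4% were higher and 12.6% lower without overlap. The 10 platelet markers overlapped (median -0.23). The part of white cell composition in the levels of the 9 genes was not tested.

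**Figure D5:**
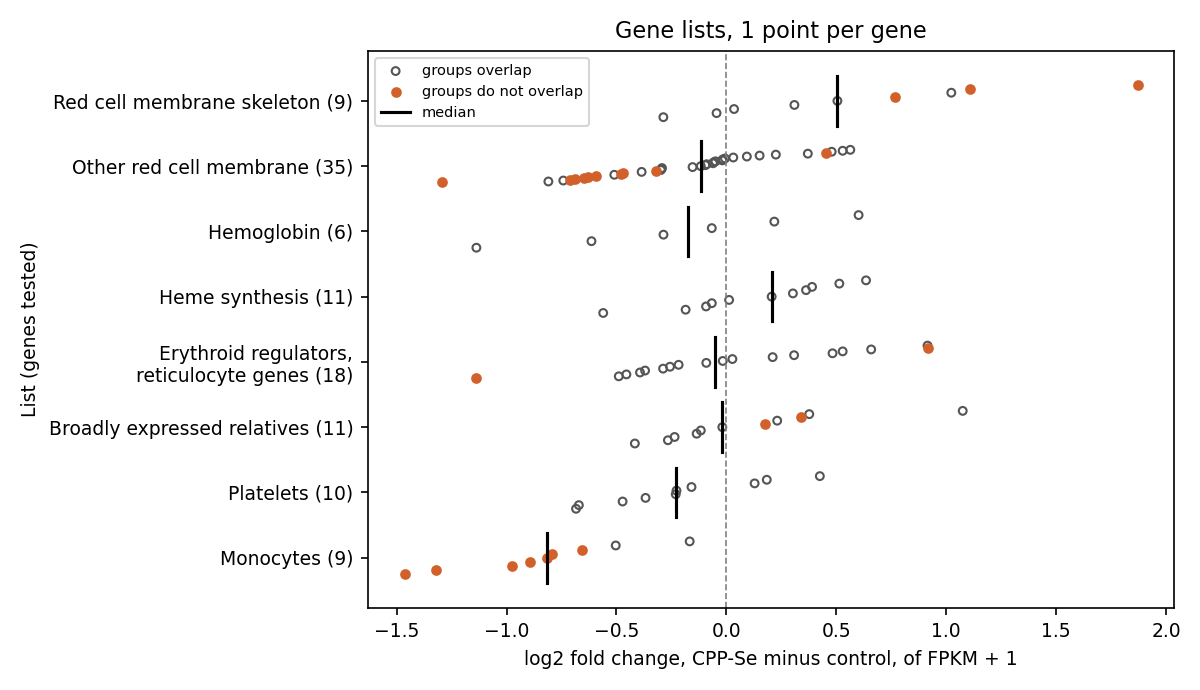
Log2 fold change of FPKM + 1, CPP-Se minus control, of every tested gene of 8 lists, with filled points where the groups did not overlap and a bar at the median of each list. The 9 skeleton genes have a median of 0.51, the other red cell membrane genes of -0.12 and the monocyte markers of -0.82.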

How the data were processed

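Whole blood RNA of 3 control and 3 CPP-Se dogs was sequenced as poly(A)-selected, paired-end libraries. The authors mapped the reads on the Ensembl release 100 dog genome and deposited FPKM per gene, computed from gene length and mapped reads. HISAT2 2.0.5, fastp 0.19.7 and featureCounts 1.5.0-p3 are named in the submitters' processing notes. Strand use and the treatment of shared reads are not given in the sources used here. Groups and replicate numbers came from the sample labels, and 0 sample columns were left out.

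FPKM times gene length gave whole reads for 100% of values. The tolerance was 0.02 reads but widened in proportion to the count for genes with many reads. For the most abundant genes the check is therefore weak. The genes that averaged 1 FPKM or more were tested on log2(FPKM + 1) in R 4.3.3 with limma 3.58.1 (lmFit, eBayes with a trend, two-sided, Benjamini-Hochberg). The pseudocount of 1 understates differences of genes with few FPKM. Tables were made with Python 3.11.15, numpy 2.4.6, pandas 2.3.3 and scipy 1.17.1, and plots with matplotlib 3.10.9. The scripts were tested on simulated data. Precision is limited by the 3 dogs per group. Nothing in the labels states that a number pairs dogs, so no pairing was used. Deviations of same-numbered dogs from their group means correlated only weakly, which cannot exclude a pairing.

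Named were all 9 genes, preset spectrin and ankyrin partners and relatives, the 3 most similar genes for each of the 3 largest fold changes, and list genes without overlap. TGM2 was named after its values were seen. Genes overlapping a member, and the ratios, were chosen after their values were seen. The 9 genes and all lists were chosen with earlier results of these data known. RHCE and CA1 are among the genes that stand in both the membrane and the erythroid list, and ADD1 and ADD3 stand in both the membrane list and that of relatives. Some genes that the rule covers are not reported here. Alternatives were a pseudocount of 0.1, other filters (none, or at least 5 FPKM), 5 other scalings, other eBayes settings, array weights, a replicate block, other thresholds, each dog left out, and limma-voom and a negative binomial model on recovered reads. No sequences are shown.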

Additional observations from a re-analysis of the deposited data

How the results depend on the processing

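Over 22 alternative settings the log2 fold changes of TMCC2 (1.502 to 2.22), RHAG (0.86 to 1.46), SLC4A1 (0.62 to 1.34), ANK1 (0.48 to 1.11), EPB41 (0.060 to 0.84) and SPTB (-0.58 to -0.033) kept their direction, with RHAG and ANK1 left out by the filter of at least 5 FPKM. Over these settings the adjusted p lay between 0.000383 and 0.455 for TMCC2, 0.0119 and 0.724 for RHAG and 0.117 and 1.00 for SLC4A1, and from 0.0465 upward for ANK1. The log2 fold change of ADD2 turned to 0.095 with a common sum of FPKM and 0.088 with a common sum without hemoglobin. It was 0.15 with a common hemoglobin sum, 0.050 in the negative binomial model and 0.30 without CPP-Se replicate 2. With each dog left out it ranged from -0.34 to 0.30. DMTN turned to -0.12 with array weights and ranged from -0.40 to 0.52 with each dog left out, and EPB42 from -0.13 to 0.61. The number of the 9 genes called was 0 with all settings but a common sum of FPKM (1, TMCC2) and the negative binomial model (3), and the number without overlap was 3 to 5 with each dog left out, beside 29.7% to 36.3% of all genes tested. The 5 were without control replicate 2 (with EPB41 and SLC4A1 added), SLC4A1 was added without CPP-Se replicate 2, and SPTB, with lower values, without CPP-Se replicate 3. Of all genes tested, 3 were called in the comparison as reported, 0 with a pseudocount of 0.1, 0 with no filter, 1 with a filter of at least 5 FPKM, 12 with a common sum of FPKM, 25 with a common hemoglobin sum, 1 with limma-voom, 488 in the negative binomial model and 0 to 14 with each dog left out (14 without CPP-Se replicate 2). The cause was not tested. These common-sum scalings moved the median of all genes by 0.13, 0.12 without hemoglobin and 0.19 on hemoglobin. The hemoglobin share differed by -1.26 percentage points, by 0.119 without control replicate 2 and by 4.997 without CPP-Se replicate 2, within a range of -4.65 to 4.997. With the replicate number as a block, 1 of all genes and 0 of the 9 were called. Deviations of same-numbered dogs correlated at 0.0165, -0.0900 and -0.0433 across genes. With 3 dogs per group such values cannot show whether the numbers pair dogs. The replicate block changed no call among the 9 genes, of which 0 were called without it. Counting error is widest for RHAG, with 14 reads in control replicate 1, and 3 dogs per group limit every value.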
